A study of Mus musculus with 48 samples.

Results

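A set of 9 genes of the myogenic program was followed through circadian time in mouse tibialis anterior muscle: the 4 myogenic regulatory factors (*Myod1*, *Myf5*, *Myf6*, and *Myog*), the satellite cell factor *Pax7*, the MEF2 family members *Mef2a*, *Mef2c*, and *Mef2d*, and *Tcap*, which encodes the Z-disc protein telethonin. They were taken by gene name from the 56748 genes of the deposited FPKM table, and all 9 were found and were among the 15637 genes abundant enough to be tested.

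The libraries came from 39- to 55-week-old male mice of 2 genotypes, with 2 mice in each of 24 groups (48 libraries). FoxP1SkmKO mice were Foxp1fl/fl and carried Acta1-cre, which recombines the floxed allele in skeletal muscle fibers and not in the other cells of the muscle. WT mice were C57BL/6J by the sample labels, while the series text describes them as Foxp1fl/fl mice without Cre. KPC mice bore orthotopic tumors grown from murine KPC pancreatic cancer cells, control mice had the same surgery with an injection of sterile PBS, and muscles were collected in constant darkness at CT18, CT22, CT26, CT30, CT34, or CT38. The first pair of times and CT38 fall in the subjective night, when mice are active, and CT26, CT30, and CT34 in the subjective day.

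The myogenic regulatory factors are basic helix-loop-helix proteins that pair with E proteins and bind E-boxes (CANNTG) of muscle genes. *Pax7* marks satellite cells, the stem cells of muscle; *Myf5* and *Myod1* act in their commitment, *Myog* in differentiation, and *Myf6* (MRF4) is the family member that predominates in mature fibers. MEF2 proteins work with them at muscle promoters and are held in check by class IIa histone deacetylases, and in muscle *Myod1* is a known direct target of the circadian activators CLOCK and BMAL1.

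Sequences just upstream of 3 of the genes are shown. *Myod1* and *Tcap* had the lowest adjusted p of a rhythm. *Myf6* was the gene that passed the adjusted test between genotypes, in KPC mice and not in control mice. Each line gives the 250 bases before the start of the GENCODE vM39 canonical transcript (GRCm39, 5′ to 3′ on the gene's strand), with E-boxes in capitals. The windows are chr7:46025620-46025869 (plus strand), chr11:98274387-98274636 (plus strand), and chr10:107330657-107330906 (minus strand).
Myod1: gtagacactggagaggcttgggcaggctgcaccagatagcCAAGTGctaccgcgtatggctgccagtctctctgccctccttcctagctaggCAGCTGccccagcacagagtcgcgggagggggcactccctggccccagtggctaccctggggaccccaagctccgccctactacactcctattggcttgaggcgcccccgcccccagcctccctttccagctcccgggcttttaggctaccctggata
Tcap: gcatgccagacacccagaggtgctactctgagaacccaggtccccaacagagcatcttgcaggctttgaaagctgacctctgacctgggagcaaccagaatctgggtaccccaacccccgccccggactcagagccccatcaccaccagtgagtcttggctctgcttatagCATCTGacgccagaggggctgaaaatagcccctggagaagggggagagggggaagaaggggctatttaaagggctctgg
Myf6: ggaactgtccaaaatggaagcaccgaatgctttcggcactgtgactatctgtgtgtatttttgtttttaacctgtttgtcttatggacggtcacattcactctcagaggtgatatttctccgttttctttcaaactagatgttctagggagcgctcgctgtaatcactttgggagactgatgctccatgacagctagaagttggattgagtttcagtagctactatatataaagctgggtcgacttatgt

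The *Myod1* window held 2 E-boxes, 210 and 158 bases before the start, and the nearer one was CAGCTG, a form that myogenic factors bind and that is itself a CANNTG match. The *Tcap* window held 1 E-box and 2 matches to AGGTCA, the core of sites for REV-ERB and ROR receptors, and the *Myf6* window held no E-box. Searched on both strands in 13250 protein-coding genes tested here, CANNTG was in 60.7% of windows of this length, CAGCTG in 11.4%, and AGGTCA in 11.6%. The canonical clock E-box CACGTG (7.69% of windows) and the D-box TTATGTAA (0.558%) were in no window of the 9 genes. These are letter matches in a short window and say nothing of sites farther away.

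By the deposited mm39 annotation *Myod1* lies at chr7:46025898-46028523, *Tcap* at chr11:98274637-98275779, and *Myf6* at chr10:107328714-107330598, beside *Myf5* at chr10:107318769-107321995. The deposited start of *Myod1* is 28 bases, and that of *Myf6* 58 bases, inside the canonical start used for the windows. For *Mef2c* the canonical start lies 20267 bases inside the deposited one, so its window is far from the deposited start.

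Libraries held 14480867 to 20787784 reads assigned to genes (median 16602091). *Foxp1* itself had 0.430 to 0.971 FPKM in WT control, 0.454 to 0.757 in WT KPC, 0.430 to 0.642 in FoxP1SkmKO control, and 0.419 to 0.653 in FoxP1SkmKO KPC libraries. The genotypes therefore overlapped at the deleted gene, counted over its whole length and in all cells of the muscle, and the genotype names below rest on the labels. Averaged over the 6 times, *Foxp1* had a log2 fold change in FoxP1SkmKO against WT of -0.11 (SE 0.07) in control and -0.20 (SE 0.07) in KPC mice. Neither was called (edgeR, adjusted p = 0.459 and 0.246). With KPC in WT mice its log2 fold change was 0.007 (SE 0.07). The WT control libraries at CT26 stood apart from the rest: their median absolute log2 deviation from the median profile was 0.212 and 0.282, against 0.124 to 0.186 in the other 46. Their genes also fell in level with gene length, with a slope per doubling of length of -0.094 and -0.071 on the log2 scale, against -0.049 to 0.057 elsewhere. Skeletal muscle fiber markers summed to between 37784 and 51826 FPKM, whereas 5 epithelial markers together reached at most 2.69 FPKM, with *Epcam* at 0 in 41 libraries.

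The 9 genes differed widely in level per length (FPKM). *Tcap* was highest, with 2567 ± 388 FPKM (SD, n = 48), followed by *Myf6* with 50.0 ± 6.15, *Mef2d* with 49.5 ± 3.30, *Mef2c* with 39.9 ± 4.67, *Myod1* with 29.0 ± 11.3, and *Mef2a* with 10.3 ± 0.872. *Myog* (1.97 ± 0.667), *Myf5* (0.620 ± 0.193), and *Pax7* (0.601 ± 0.129) were low, and these 3 rested on a median of 47.5, 22, and 59.5 reads per library. *Myf6* and *Mef2d* could not be ranked, with *Myf6* higher in 21 of 48 libraries, nor could *Myf5* and *Pax7*, with *Myf5* higher in 25 of 48. *Tcap* exceeded *Myf6*, and *Mef2a* exceeded *Myog*, with no overlap of ranges. *Myod1* ranged from 7.84 to 50.6 FPKM over the libraries and *Mef2d* from 41.0 to 63.4. As these are whole muscles, fewer cells of a type and less RNA per cell cannot be told apart for genes such as *Pax7* and *Myf5* that only some cells express.

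**Figure D1:**
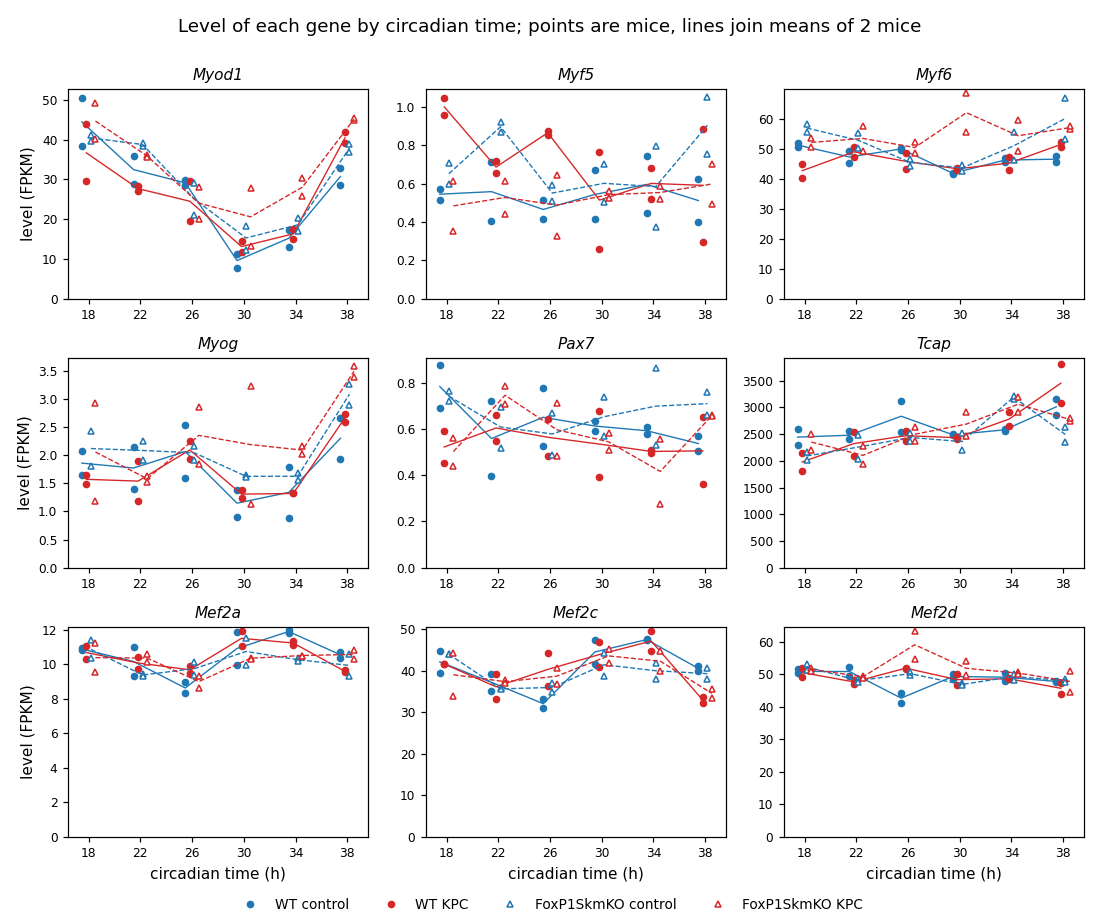
Level of each of the 9 genes (FPKM, y axis from 0) against circadian time (h); each point is 1 mouse, filled circles are WT and open triangles FoxP1SkmKO, blue control and red KPC, and lines, dashed for FoxP1SkmKO, join means of 2 mice. *Myod1* falls from near 40 FPKM at CT18 to its lowest levels at CT30 in each of the 4 conditions, and the open red triangles of *Myf6* lie above the filled red circles at most times.

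Time of day gave the most calls among these genes. A 24 h cosine and sine contrast over the 4 conditions (quasi-likelihood test of edgeR, p adjusted by Benjamini-Hochberg over all tested genes) called 5 of the 9 genes rhythmic, beside 39.9% of all tested genes. They were *Myod1*, *Tcap*, *Mef2c*, *Mef2a*, and *Myf6*, and DESeq2 called 5 as well. The median log2 amplitude was 0.10 over the 9 genes and 0.11 over all tested genes.

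*Myod1*, the commitment factor, had the widest rhythm. Its mean over the 8 mice of a time was 41.6 ± 6.59 FPKM (SD) at CT18, 33.7 ± 4.82 at CT22, 25.7 ± 4.65 at CT26, 14.6 ± 6.15 at CT30, 19.5 ± 5.77 at CT34, and 38.6 ± 5.78 at CT38. The mean was thus lower at each time from CT18 to CT30 and higher again at CT34 and CT38. In WT control mice the 4 libraries of CT30 and CT34 lay between 7.84 and 17.3 FPKM and the 4 of CT18 and CT38 between 28.5 and 50.6. The corresponding ranges were 11.8 to 17.7 and 29.5 to 43.8 FPKM in WT KPC, 12.2 to 20.3 and 36.9 to 41.3 in FoxP1SkmKO control, and 13.2 to 30.3 and 40.3 to 49.1 in FoxP1SkmKO KPC mice. The trough and peak libraries did not overlap in any condition. These times are those with the lowest and highest means in the same data, so their separation is a description and not a test. The share of all genes separated in this way was not counted. Over the 4 conditions the log2 amplitude was 0.75 (SE 0.05, adjusted p = 7.0e-13), a 2.82-fold difference between peak and trough, with the fitted peak at CT18.4.

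A sinusoid was also fitted to FPKM within each condition. The study used a sinusoidal model from another package, and the test here differs from it (an F test gene by gene with 12 mice and 9 residual degrees of freedom, called at an unadjusted p under 0.01). *Myod1* was called in each of the 4, but in WT KPC mice not without the second mouse of CT18 or either mouse of CT30 (p = 0.0185, 0.0138, and 0.0170, each with n = 11). Its amplitude was 15.4 ± 2.29 FPKM (SE) around 26.9 in WT control, 12.5 ± 2.74 around 26.5 in WT KPC, 14.1 ± 1.43 around 29.3 in FoxP1SkmKO control, and 13.4 ± 1.99 around 33.1 in FoxP1SkmKO KPC mice. The amplitude was 57.3% of the basal level in WT control and 40.6% in FoxP1SkmKO KPC mice. Fitted peaks were CT19.1, CT41.6, CT18.6, and CT40.9 in the same order, and the KPC values less 24 h are CT17.6 in WT and CT16.9 in FoxP1SkmKO mice, earlier than in the controls of each genotype. The change of the *Myod1* rhythm with KPC, amplitude and phase together, did not pass the test in WT (log2 scale, adjusted p = 0.399) or FoxP1SkmKO mice (adjusted p = 0.495, edgeR).

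Background in this per-condition test was 4.92% of genes in WT control, 4.22% in WT KPC, 4.07% in FoxP1SkmKO control, and 2.63% in FoxP1SkmKO KPC mice. *Myod1* was the called member in both WT conditions. *Myf6* joined it in FoxP1SkmKO control mice, with an amplitude of 8.09 ± 1.78 FPKM and a peak at CT40.2, and *Tcap* in FoxP1SkmKO KPC mice, with 422 ± 80.5 FPKM and a peak at CT33.8. The *Myf6* call was lost without the first mouse of CT18, the second of CT26, or either of CT30 (p = 0.0115 to 0.0149, each with n = 11). After Benjamini-Hochberg adjustment over all genes, *Myod1* in FoxP1SkmKO control mice stayed under 0.05 (adjusted p = 0.0148 across all genes), and the other 5 calls did not.

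Markers of other cells moved with time too. The 5 macrophage markers summed to a median of 11.8 FPKM at CT18 (range 7.46 to 23.2) and 5.61 at CT30 (3.28 to 12.7), and the 5 fibroblast markers to 62.1 (21.6 to 70.0) and 36.3 (21.1 to 80.4). All 5 macrophage and all 5 fibroblast markers were called rhythmic by the contrast over the 4 conditions, with peaks between CT20.0 and CT23.4. So were 4 of 5 endothelial markers and 6 of 9 satellite cell genes, beside 39.9% of all tested genes. The satellite cell genes, among them the syndecan *Sdc4* (1.71-fold), the Notch targets *Heyl* (1.43-fold) and *Hey1* (1.36-fold), and the adhesion gene *Cdh15* (1.43-fold), summed to 29.2 FPKM at CT26 and 21.3 at CT34 in the mean. *Sdc4* and *Cdh15* had the highest median levels of this list (7.42 and 6.92 FPKM), and its lowest gene had 0.0741. The cells that made these transcripts were not told apart in whole muscle, so the sum is no measure of satellite cells alone. *Pax7* was not called, with means of 0.552 to 0.637 FPKM over the 6 times. The part of these cells in the rhythms of the 9 genes was not tested.

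**Figure D2:**
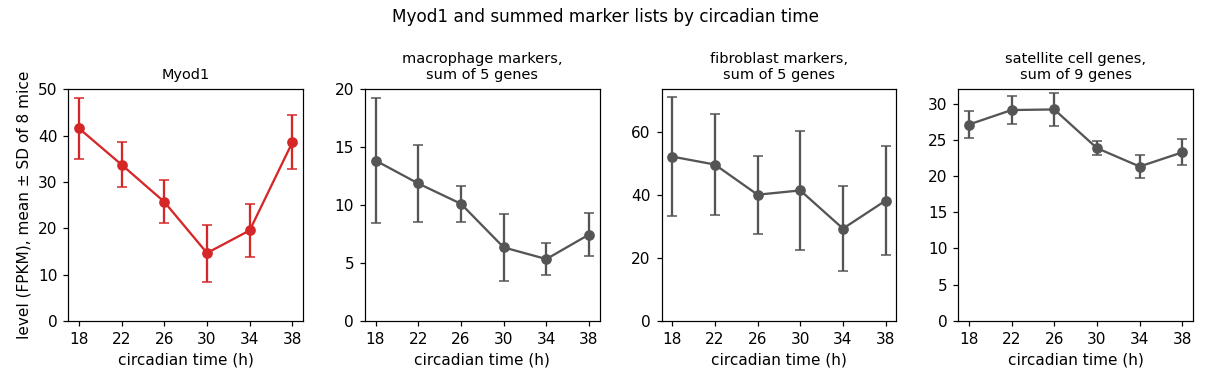
Mean ± SD over 8 mice at each circadian time (h) of *Myod1* and of the summed FPKM of macrophage markers, fibroblast markers, and satellite cell genes, each y axis from 0. *Myod1* is lowest at CT30 and recovers by CT38. The macrophage, fibroblast, and satellite cell sums are each lowest at CT34, with means of 5.33, 29.4, and 21.3 FPKM. They had 7.44, 38.3, and 23.3 FPKM at CT38, against 13.8, 52.2, and 27.1 at CT18.

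*Tcap* was highest at the end of the subjective day and the start of the night. Its mean was 2217 ± 251 FPKM at CT18, 2291 ± 244 at CT22, 2561 ± 250 at CT26, 2493 ± 201 at CT30, 2905 ± 275 at CT34, and 2934 ± 438 at CT38 (SD, n = 8). The ranges at CT18 (1815 to 2591) and CT34 (2566 to 3223) overlapped at their edges. The log2 amplitude was 0.18 (SE 0.02, adjusted p = 3.0e-06), 1.28-fold from trough to peak, with a peak at CT34.0. In counts the rhythm was called by edgeR in WT KPC, FoxP1SkmKO control, and FoxP1SkmKO KPC mice (beside 11.2%, 8.27%, and 6.93% of all genes) and not in WT control mice (adjusted p = 0.847; 18.4% of all genes), but the change with KPC in WT mice did not pass the test across all genes (adjusted p = 0.311).

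Among Z-disc genes and other partners of telethonin, 10 of 20 listed genes were called rhythmic, beside 39.9% of all tested genes. The median log2 amplitude was 0.10 over the list. *Xirp1*, which encodes the actin-binding protein XIN, peaked at CT21.4 with a 1.47-fold difference. *Mstn*, the secreted muscle growth inhibitor myostatin, peaked at CT36.3 with a 1.26-fold difference. *Myot* (myotilin) peaked at CT40.7 with 1.19-fold.

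*Mef2a* and *Mef2c* had similar courses. *Mef2c* had 41.6 ± 3.64 FPKM at CT18, 36.5 ± 2.13 at CT22, 36.7 ± 4.15 at CT26, 43.3 ± 3.05 at CT30, 44.2 ± 4.00 at CT34, and 36.8 ± 3.57 at CT38. *Mef2a* had 10.7 ± 0.605, 9.99 ± 0.632, 9.26 ± 0.607, 10.9 ± 0.834, 10.97 ± 0.691, and 10.2 ± 0.590 FPKM in the same order. Both were thus high at CT18, CT30, and CT34 and lower at the other times. The 24 h fit gave *Mef2c* a log2 amplitude of 0.10 (SE 0.02, adjusted p = 0.00105, edgeR) with a peak at CT33.3, and *Mef2a* 0.08 (SE 0.02, adjusted p = 0.00362) with a peak at CT35.4. From trough to peak this was 1.16-fold for *Mef2c* and 1.12-fold for *Mef2a*. *Mef2d* differed: its means lay between 47.3 and 51.3 FPKM, its log2 amplitude was 0.02, and it was not called (adjusted p = 0.352).

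The WT control libraries of CT26 had 31.0 and 33.0 FPKM of *Mef2c*. Without them the call of *Mef2a* was lost (log2 amplitude 0.06, adjusted p = 0.0751, edgeR), and *Mef2c* remained called (0.10, adjusted p = 0.0175). With the trend on gene length removed from each library, the amplitudes were 0.05 for *Mef2a* and 0.09 for *Mef2c*, and both remained called, as did *Tcap* at 0.16 and *Myod1* at 0.76. The length slope itself moved with time, from a median of 0.037 at CT18 to -0.014 at CT38.

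**Figure D3:**
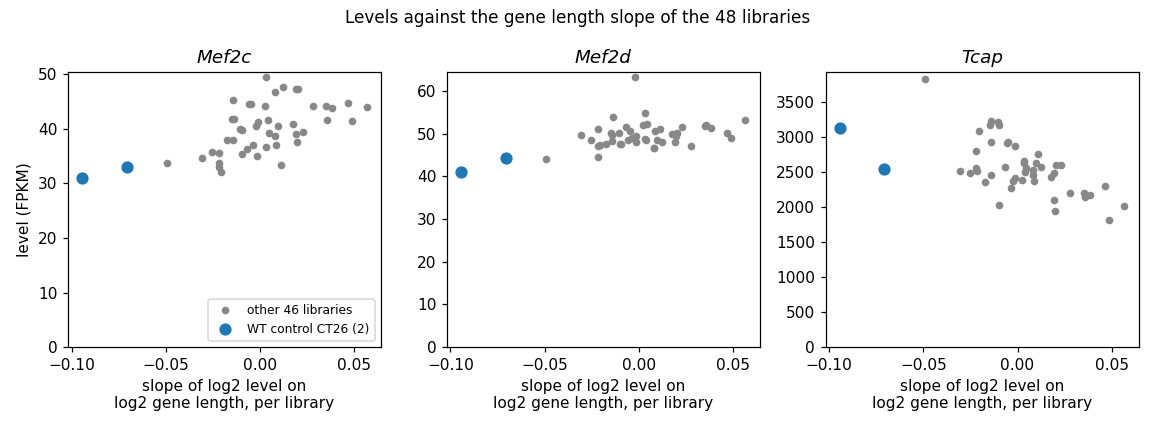
FPKM of *Mef2c*, *Mef2d*, and *Tcap* (y axes from 0) against the slope of log2 level on log2 gene length in each of the 48 libraries; the large blue points are the 2 WT control libraries at CT26. These sit farthest to the left, at slopes of -0.094 and -0.071, with *Mef2c* and *Mef2d* near the bottom of their ranges.

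For *Myf6* and *Myog* the call depended on single libraries. *Myf6*, the fiber factor, had a log2 amplitude of 0.07 (SE 0.02, adjusted p = 0.0253, edgeR) with a peak at CT40.1, a 1.10-fold difference. The call was lost without the second WT KPC mouse of CT18 (0.07, adjusted p = 0.0511) or the first FoxP1SkmKO KPC mouse of CT30 (0.06, adjusted p = 0.0552). *Myog*, the differentiation factor, had 1.57 ± 0.716 FPKM at CT30, 1.59 ± 0.416 at CT34, and 2.89 ± 0.531 at CT38, and between 1.74 and 2.14 at the other times. Its 24 h contrast missed the threshold (log2 amplitude 0.21, SE 0.08, adjusted p = 0.0637), and passed it without the second FoxP1SkmKO KPC mouse of CT30 (0.29, adjusted p = 0.00513) and without any one of 7 other libraries. A test for any difference between the 6 times, added after these levels were seen and calling 40.6% of all genes, called *Myog* (adjusted p = 8.9e-04) along with *Myod1*, *Mef2a*, *Mef2c*, and *Tcap*. *Myf5* (adjusted p = 0.511) and *Pax7* (adjusted p = 0.528) were not called by the 24 h contrast.

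The regulators that act with these factors were read from lists, and their counts stand beside 39.9% of all tested genes called rhythmic. Of 9 measured E proteins and their inhibitors, 2 were called rhythmic: *Tcf3*, which encodes the E protein E12/E47, peaked at CT24.5 (1.30-fold), and the inhibitor *Id3* at CT41.7 (1.36-fold). Of 14 homeobox, EYA, TEAD, and VGLL factors that act beside the myogenic factors 8 were called, led by *Tead4* (2.22-fold, peak CT22.1), *Vgll2* (1.60-fold, CT21.1), *Six5* (1.53-fold, CT22.9), and *Eya1* (1.25-fold, CT24.2). Of 14 MEF2 co-regulators 11 were called, among them the MEF2 repressors *Hdac9* (1.59-fold, CT27.7) and *Hdac7* (1.30-fold, CT21.8) and the deacetylase kinases *Prkd1* (1.47-fold, CT18.6) and *Sik1* (1.31-fold, CT39.2). Of 10 differentiation and fusion genes 3 were called: the cell cycle inhibitor *Cdkn1a* (2.09-fold, CT20.3), the muscle receptor kinase gene *Musk* (1.58-fold, CT34.6), and the perinatal myosin *Myh8* (1.31-fold, CT18.6). All 11 clock genes were called, among them *Npas2* (12.9-fold, CT22.6), *Dbp* (9.24-fold, CT32.2), *Per2* (8.29-fold, CT34.9), and *Nr1d1* (6.65-fold, CT27.5).

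**Figure D4:**
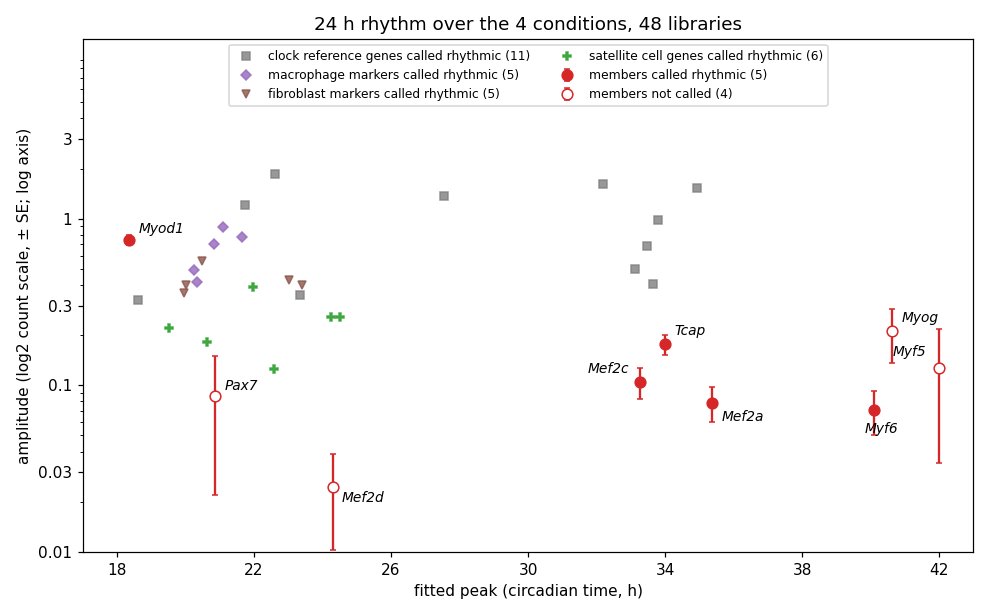
Amplitude on the log2 count scale (log axis, ± SE) against fitted peak (circadian time, h) from the contrast over 48 libraries; red circles are the 9 genes, filled where called, and small symbols are the called clock, macrophage, fibroblast, and satellite cell genes. *Myod1* stands at CT18.4 with an amplitude of 0.75, and *Tcap*, *Mef2c*, and *Mef2a* group between CT33 and CT36 at amplitudes under 0.2.

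Averaged over the 6 times, no KPC effect passed the test in these genes. In WT mice none of the 9 was called, nor reached an unadjusted p under 0.05, by edgeR or DESeq2, while 1.79% of all tested genes were called. By edgeR 2370 of all 15637 tested genes had an unadjusted p under 0.05. The largest value was that of *Myf5*, whose levels ran from 0.401 to 0.744 FPKM (median 0.516) in WT control and from 0.261 to 1.05 (median 0.742) in WT KPC mice, with overlapping ranges (log2 fold change 0.37, SE 0.18, adjusted p = 0.344, edgeR). *Pax7* had a log2 fold change of -0.20 (SE 0.13), and the other 7 lay between -0.05 and 0.03. The median of the 9 was -0.01, against 0.002 over all genes.

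In FoxP1SkmKO mice the count was again 0 of 9 by edgeR and DESeq2, beside 0.428% of all genes. By edgeR 3 of the 9 had an unadjusted p under 0.05, beside 1936 of all 15637 tested genes, and by DESeq2 2 of the 9. The 3 by edgeR were *Myod1* (log2 fold change 0.21, SE 0.10), *Myf6* (0.10, SE 0.04), and *Mef2d* (0.07, SE 0.03), with adjusted p of 0.365, 0.349, and 0.287. *Myf5* and *Pax7* had -0.36 (SE 0.18) and -0.22 (SE 0.13). Without the second FoxP1SkmKO KPC mouse of CT30, which had 28.0 FPKM against 13.2 in the first, the *Myod1* value was 0.10 (adjusted p = 0.677). That mouse also had the highest *Myf6* of the series (68.5 FPKM) and 3.24 FPKM of *Myog* against 1.14 in its partner. It also had the lowest sums of endothelial (38.8 FPKM) and smooth muscle markers (9.52) of its condition, where the medians were 52.4 and 18.0, and their part in these values was not tested.

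The KPC effect was not shown to differ between the genotypes for any of the 9 (0% of all genes called). *Myf5* had the largest difference, -0.73 (log2, FoxP1SkmKO minus WT, SE 0.26, unadjusted p = 0.00881 and adjusted p = 0.764 from edgeR, a model fitted across all genes). Its mean was higher in KPC mice at 5 of 6 times in WT and at 0 of 6 in FoxP1SkmKO mice. *Myf6* was the other gene with an unadjusted p under 0.05 (0.12, SE 0.06, adjusted p = 0.764), and DESeq2 called none, with 1 gene at an unadjusted p under 0.05. Of all 15637 tested genes, 1020 were under 0.05 before adjustment by edgeR. *Myf5* stood on 9 to 42 reads per library.

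At single times, the share of all genes called in WT mice was 0% at CT18, CT22, and CT34, 7.17% at CT26, 0.0064% at CT30, and 0.0256% at CT38. In FoxP1SkmKO mice it was 0.0192% at CT18, 0% at CT22, CT30, and CT34, 0.0384% at CT26, and 0.0064% at CT38. *Mef2d* at CT26 in WT mice was the single call among the 9 genes over the 6 times and both genotypes. It had 41.0 and 44.2 FPKM in control and 52.0 and 51.7 in KPC mice, without overlap (log2 fold change 0.28, SE 0.07, adjusted p = 0.0129, edgeR). *Mef2c* there had 31.0 and 33.0 FPKM in control and 44.2 and 36.4 in KPC mice, again without overlap (log2 fold change 0.32, SE 0.11, adjusted p = 0.0611; DESeq2 adjusted p = 0.0233).

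Both control libraries of this comparison are those that stood apart. With the length trend removed, *Mef2d* had 0.20 (adjusted p = 0.101, edgeR) and *Mef2c* 0.03 (adjusted p = 0.912). The *Mef2d* call was also lost without the first control library (0.22, adjusted p = 0.294), without either KPC library (adjusted p = 0.0722 and 0.0673), with the 4 libraries fitted alone (0.28, adjusted p = 0.130), or with no filter on low counts (0.26, adjusted p = 0.126), where *Mef2c* was called instead (0.31, adjusted p = 0.0233). At CT26 in FoxP1SkmKO mice *Mef2d* had 49.8 and 50.5 FPKM in control and 54.7 and 63.4 in KPC mice, also without overlap, at a log2 fold change of 0.23 (SE 0.07) that was not called (adjusted p = 0.2997).

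*Myf6* at CT30 in FoxP1SkmKO mice came near the threshold. It had 42.7 and 44.5 FPKM in control and 55.6 and 68.5 in KPC mice (log2 fold change 0.52, SE 0.11, adjusted p = 0.0778, edgeR; DESeq2 adjusted p = 0.0109), and 0.37 (adjusted p = 0.792) without the mouse at 68.5. At the same time in WT mice control and KPC values were 42.02 and 41.6 against 42.95 and 43.7 FPKM. The change of the 24 h rhythm of *Myf6* with KPC in FoxP1SkmKO mice had an unadjusted p of 4.6e-04 and an adjusted p of 0.101 in edgeR's model across all genes, and DESeq2 called it (adjusted p = 0.0471). Neither genotype had a called change of rhythm among the 9 genes by edgeR, beside 0.384% of all genes in WT and 0.0064% in FoxP1SkmKO mice. At an unadjusted p under 0.05 there were 2 in each, *Mef2c* and *Tcap* in WT and *Myf6* and *Mef2d* in FoxP1SkmKO mice. Of all 15637 tested genes, 2112 in WT and 1706 in FoxP1SkmKO mice were under 0.05 by the same test.

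Among the averages over the 6 times, only genotype in KPC mice gave a call among the 9 genes, that of *Myf6*. In KPC mice *Myf6* ran from 40.4 to 52.2 FPKM in WT (median 46.2, n = 12) and from 48.5 to 68.5 in FoxP1SkmKO mice (median 54.6, n = 12). The ranges overlapped over all times, but at 5 of 6 times both FoxP1SkmKO mice were above both WT mice, and at the other, CT22, they overlapped. The log2 fold change was 0.25 (SE 0.04, adjusted p = 0.00404, edgeR), the single call among the 9 genes beside 0.32% of all tested genes, and DESeq2 made 1 call as well. Left out one at a time, no library ended the call (log2 fold change 0.22 to 0.27), but averaging without CT30 did (0.19, adjusted p = 0.152).

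*Myod1*, at 0.37 (SE 0.10, adjusted p = 0.0859), *Myog*, at 0.40 (SE 0.15, adjusted p = 0.271), and *Mef2d*, at 0.08 (SE 0.03, adjusted p = 0.259), were also higher by an unadjusted p under 0.05 and did not pass the adjusted test. Before adjustment, 1688 of all 15637 tested genes were under 0.05 by edgeR. *Myod1* spanned 11.8 to 43.8 FPKM in WT KPC and 13.2 to 49.1 in FoxP1SkmKO KPC mice, with overlapping ranges. At 3 of 6 times both FoxP1SkmKO mice exceeded both WT mice and at 3 they overlapped. Without the same CT30 mouse the *Myod1* value was 0.26 (adjusted p = 0.308), while it passed without its partner (0.44, adjusted p = 0.00678), without the first WT KPC mouse of CT26 (0.42, adjusted p = 0.0384), or without the first FoxP1SkmKO KPC mouse of CT26 (0.41, adjusted p = 0.0395).

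In control mice 0 of 9 genes were called by edgeR and by DESeq2, while 3.44% of all genes were. *Myf6* (log2 fold change 0.12, SE 0.04, unadjusted p = 0.00813, adjusted p = 0.114 over all genes) and *Tcap* (-0.11, SE 0.05, adjusted p = 0.243) were under 0.05 before adjustment, as in DESeq2, which had 2. So were 2682 of all 15637 tested genes by edgeR. Averaged without CT34, *Tcap* was called (-0.19, adjusted p = 0.0348, edgeR). *Myf6* had 41.6 to 52.0 FPKM in WT and 42.7 to 66.9 in FoxP1SkmKO control mice, and both FoxP1SkmKO mice were above both WT mice at 4 of 6 times and below them at 1, CT26. Without both WT control CT26 libraries, or with the length trend removed, *Myf6* was called in control mice too (0.17, adjusted p = 0.0442, and 0.14, adjusted p = 0.0469, edgeR), and also without the first FoxP1SkmKO control mouse of CT38 (0.15, adjusted p = 0.0335). These libraries are not in the comparison of KPC mice, but each is also in a KPC comparison above.

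**Figure D5:**
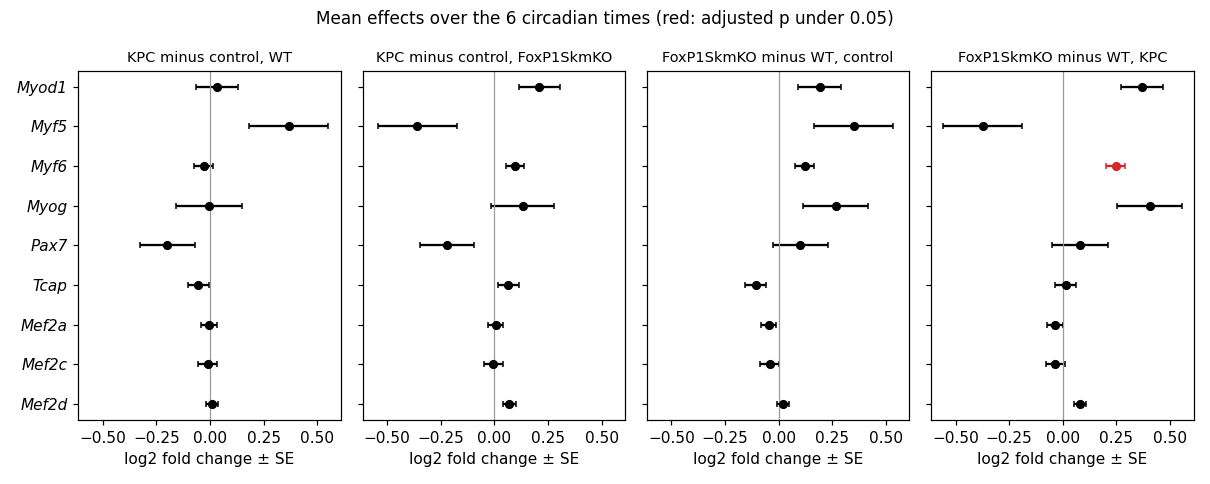
Log2 fold change ± SE of the 9 genes averaged over the 6 circadian times, in 4 comparisons (KPC minus control in WT and in FoxP1SkmKO mice, FoxP1SkmKO minus WT in control and in KPC mice); red marks an adjusted p under 0.05. Only *Myf6* in KPC mice, at 0.25, is red, and the widest error bars are those of the low genes *Myf5*, *Myog*, and *Pax7*.

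With KPC in WT mice, 3 of 20 genes of the telethonin list rose, beside 1.79% of all genes called, among them *Des* (desmin, log2 fold change 0.16) and *Actn3* (alpha-actinin-3, 0.18), and the clock gene *Per1* rose by 0.61. In FoxP1SkmKO KPC mice *Des* (0.16) and the MEF2 repressor *Hdac4* (0.26) rose. Between genotypes in control mice, 4 of the 20 were called, 1 higher and 3 lower, beside 3.44% of all genes. The lower ones were *Csrp3* (muscle LIM protein, -0.97), *Fhl1* (-0.31), and *Pdlim5* (-0.18). The kinase gene *Sik1* (0.69), the bHLH inhibitor *Id1* (0.48), and *Cdkn1a* (0.79) were higher and *Eya1* (-0.19) lower, each the single call of its list, as were the clock gene *Per1* (0.75) and the fast troponin *Tnnt3* (-0.14). In FoxP1SkmKO against WT KPC mice none of these lists held a call.

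Some markers of other cells were called lower with KPC in WT mice, beside 1.79% of all tested genes called. They were 2 of 5 fibroblast markers (*Col1a1*, -0.91, and *Col3a1*, -0.71), 1 of 4 tendon markers (*Tnmd*, -1.42), and 1 of 5 endothelial markers (*Kdr*, -0.27). Summed over the 5 fibroblast markers, levels were 25.9 to 80.4 FPKM (median 50.4) in WT control and 16.1 to 70.3 (median 30.6) in WT KPC mice. In FoxP1SkmKO mice the medians were 46.1 in control (24.2 to 64.8) and 26.3 in KPC mice (19.8 to 70.8). There 1 of the 5, *Lum*, was called lower (-0.79), beside 0.428% of all tested genes. Of 5 slow fiber markers 1, *Myl3* (-0.50), was called by genotype in control mice, beside 3.44% of all tested genes. The medians of their sum were 18.9 in WT and 13.7 in FoxP1SkmKO control mice. Satellite cell genes summed to medians of 24.4 in WT KPC and 26.0 in FoxP1SkmKO KPC mice, with ranges of 18.2 to 30.3 and 21.7 to 29.8. The part of these cells in the values of the 9 genes was not tested.

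The genes whose log2 levels were most like each member over the 48 libraries are given as a description, since the libraries share time of day and depth. *Myod1* was most like *G0s2* (Pearson r = 0.87), *Zfp703* (0.86), and *Plekhh3* (0.86). *Mef2c* was most like *Kif1b* (0.88), *Pja2* (0.88), and *Foxn3* (0.88), and *Mef2a* like *Ppp1r3a*, *Ano5*, and *Kdm7a* (0.84, 0.83, and 0.83). *Tcap* was most like *Trim54* (0.81), *Trip10* (0.80), and *Ccdc85b* (0.79), *Mef2d* like *Speg* (0.81), *Nfic* (0.79), and *Xpo6* (0.79), and *Myog* like *Jund* (0.74), *Id3* (0.69), and *Amt* (0.63). *Myf6* was most like *Ctxn3* (0.71), *Slc25a25* (0.68), and *C030037D09Rik* (0.67). The highest r was 0.54 for both *Myf5* (with *Ackr2*) and *Pax7* (with *Tnfrsf26*). Within the 9, *Mef2a* and *Mef2c* were the most alike pair (0.72), followed by *Myod1* and *Myog* (0.61), and *Myod1* and *Mef2c* were the least alike (-0.54). These 3 pairs had r of 0.55, 0.49, and -0.34 when each group's mean was subtracted. *Mef2a* and *Mef2c* are also the longest of the 9 genes (14681 and 15715 bases). The part of the libraries' gene length trend in their likeness was not tested.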

How the data were processed

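Tibialis anterior RNA was sequenced as poly-A libraries. Counts per gene and FPKM (fragments scaled by gene length and library size) were deposited by the authors; the paper names STAR and HTSeq, the submitters' processing notes HISAT2 2.0.5 and DESeq2 1.20.0, on mm39. Whether counting used strand is not given in the sources used here, so antisense reads cannot be told apart. The deposited comparison tables also hold the authors' fold changes and p-values, which were not used. Their counts were joined into 1 matrix; genes with a summed count of 0 or 1 over a comparison's 4 libraries are not listed there, and single reads were recovered from FPKM. Genes passing edgeR's filterByExpr (15637) were TMM-scaled and fitted with edgeR (4.0.16) quasi-likelihood, 1 coefficient per group, with Benjamini-Hochberg adjustment at 0.05. Alternatives used DESeq2, limma, other scalings, no filter, a replicate term, and left-out libraries. Scripts were tested on simulated data. The reported edgeR p-values rest on the spread between the 2 mice of a group, pooled over the 24 groups. Those of the sinusoid on FPKM rest on the deviations of 12 mice from the fitted curve, which include any misfit of the curve. All 9 genes were named, as were up to 4 called genes per list with the largest changes and the 3 genes most like each; 1 listed gene is not reported here. The genes and lists were chosen with earlier results of these data known. Replicate deviations correlated between groups from -0.324 to 0.234.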

Additional observations from a re-analysis of the deposited data

Results flagged for a closer look

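At 5 combinations among 9 genes and 6 times, the genotypes had opposite orders. Both KPC mice of 1 genotype lay above both control mice, and both of the other genotype lay below them. The share of all genes with such orders was not counted, so the 5 have no background beside them. The KPC effect in FoxP1SkmKO minus that in WT mice was 0.28 for *Myf6* at CT26 (log2, SE 0.15, adjusted p = 0.503, edgeR's quasi-likelihood test), -0.28 for *Mef2a* at CT26 (SE 0.13, adjusted p = 0.404), and 0.11 for *Mef2a* at CT34 (SE 0.13, adjusted p = 0.9999). It was 0.13 for *Mef2d* at CT22 (SE 0.10, adjusted p = 0.972) and 0.49 for *Tcap* at CT18 (SE 0.17, adjusted p = 0.305). None of the 5 passed the test of the difference, which was chosen after these orders were seen. The comparisons at CT26 include the WT control libraries that stood apart.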

How the results depend on the processing

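Counts of members called were within 1.5 times of the reported ones in 484 of 527 alternatives. A reported 0 that stayed 0 was taken as within, so this share also holds comparisons that had no call to lose. Direction was followed for called genes and, outside the rhythms within a condition, for genes with an unadjusted p under 0.05. None of these reversed, and the other genes were not followed in this way. Without a filter on low counts (33218 genes, with an infinite prior df that drops gene-specific spread, and 470 genes in place of 50 called for genotype in KPC mice) the count was 1 for KPC in FoxP1SkmKO mice, 2 for genotype in control and 2 in KPC mice, 1 in WT mice at CT18 and 1 at CT38, 2 in FoxP1SkmKO mice at CT30 and 1 at CT34, and 3 and 2 for the change of rhythm in WT and FoxP1SkmKO mice. Genotype in control mice gave 1 with the length trend removed, 1 without CT26, 1 without CT34 (*Tcap*), and 1 without both WT control CT26 libraries, and genotype in KPC mice 0 without CT30. WT mice at CT26 gave 0 with the length trend removed, 0 with 4 libraries alone, and 2 by DESeq2, which gave 1 in FoxP1SkmKO mice at CT30 and 1 for their change of rhythm. The length and CT26 library alternatives were chosen after seeing the data. For rhythms within a condition, adjusted p gave 0 in WT control, 0 in WT KPC, 1 in FoxP1SkmKO control, and 0 in FoxP1SkmKO KPC mice, and with a mean FPKM of at least 1 it gave 0 in WT KPC and 1 in each FoxP1SkmKO condition. On counts, edgeR gave 3 in WT control (*Myod1*, *Mef2c*, *Mef2a*; 18.4% of all genes) and 2 in WT KPC mice (*Myod1*, *Tcap*; 11.2%). The cause was not tested. Leaving out 1 library at a time, counts ran from 0 to 1 for genotype in control mice, 1 to 2 in KPC mice, 0 to 1 in WT at CT26 and FoxP1SkmKO at CT30, 4 to 6 for the rhythm over all conditions, 0 to 1 for its change in FoxP1SkmKO mice, and 0 to 1, 1 to 2, and 2 to 3 for rhythms in WT KPC, FoxP1SkmKO control, and FoxP1SkmKO KPC mice. The *Myod1* rhythm in WT KPC mice missed 0.01 without any of 3 libraries (both of CT30, the second of CT18), and that of *Myf6* in FoxP1SkmKO control mice without any of 4. Replicate numbers did not pair the mice (12 of 276 group pairs correlated over 0.1), and with a replicate block the count for genotype in KPC mice was 1 and no count moved by over 1.5 times. *Myf5*, *Myog*, and *Pax7* are limited by their read counts.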
